A study of Mus musculus with 16 samples.

Results

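The Dlx family is a set of homeobox transcription factor genes related to Distal-less of Drosophila. Its 6 mouse members, Dlx1 to Dlx6, were matched by Ensembl identifier among the 54838 identifiers counted by RNA sequencing in mouse embryos of stage E10.5. All 6 identifiers were found and all 6 passed the filter on low counts, so that none of the members is left out below. The identifiers are ENSMUSG00000041911 (Dlx1), ENSMUSG00000023391 (Dlx2), ENSMUSG00000001510 (Dlx3), ENSMUSG00000020871 (Dlx4), ENSMUSG00000029755 (Dlx5) and ENSMUSG00000029754 (Dlx6).

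The 16 libraries fall into 8 groups of 2. Each genotype, Fuz;Gpr161 DKO (DKO from here on), Gpr161 KO, Fuz KO and WT, was taken as a Head, the tissue in front of the third branchial arches, and as a Tail, the tissue behind the forelimbs. No embryo received a treatment. The labels give neither the alleles nor the strain. Nothing in them tells whether the 2 libraries of a group are 2 embryos, so the p-values cover only the spread among these samples, which may be technical, except in Gpr161 KO, whose 2 libraries differ in sex and so in embryo. Fuz encodes a planar cell polarity effector needed for building cilia, and Gpr161 encodes a ciliary receptor that holds Hedgehog signalling down.

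Dlx genes lie in the genome as neighbouring pairs that are transcribed towards each other, Dlx1 with Dlx2, Dlx3 with Dlx4, and Dlx5 with Dlx6. In the branchial arches they are expressed in nested domains: Dlx1 and Dlx2 along the whole arch, Dlx5 and Dlx6 in its lower part under endothelin signalling, and Dlx3 and Dlx4 nearest the tip, an order that patterns the jaws. In the ventral forebrain Dlx1 and Dlx2 come first and Dlx5 and Dlx6 follow, in the precursors of inhibitory neurons. Members are also expressed in surface ectoderm, the limb ridge, and the olfactory and otic placodes.

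The members share their homeobox, the stretch that codes for the DNA-binding homeodomain, and it is shown for that reason. The last 60 of its 180 bases, which hold the codons of the DNA-recognition helix, read as follows in GENCODE M21 transcripts. Capitals mark bases that at most 2 of the 6 members have at that place.
Dlx1: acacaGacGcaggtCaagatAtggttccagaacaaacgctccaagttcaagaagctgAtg
Dlx2: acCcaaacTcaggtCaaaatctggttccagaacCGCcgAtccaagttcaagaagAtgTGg
Dlx3: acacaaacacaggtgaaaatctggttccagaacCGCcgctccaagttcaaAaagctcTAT
Dlx4: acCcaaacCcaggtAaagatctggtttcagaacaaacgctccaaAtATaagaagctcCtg
Dlx5: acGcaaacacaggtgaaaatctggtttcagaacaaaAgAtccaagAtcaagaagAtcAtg
Dlx6: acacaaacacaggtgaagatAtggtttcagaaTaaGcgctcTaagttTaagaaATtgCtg
Over the whole homeobox any 2 members had 66.1 to 81.7% of bases in common, the least between Dlx3 and Dlx6 and the most between Dlx2 and Dlx3. The proteins they code for had 47 to 58 of 60 homeodomain residues in common, the most between Dlx1 and Dlx6. The longest run of identical bases between transcripts of any 2 members was 23 bases.

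Total counts were 39062489 to 53680317 per library, and levels are given as CPM, the counts scaled to a common total after correction for library composition. Gpr161 was at 3.49 to 5.44 CPM in the DKO and Gpr161 KO Heads, against a mean of 54.5 ± 0.693 CPM in the WT Heads (SD, n = 2), and Fuz was at 0.909 to 1.89 CPM in the DKO and Fuz KO Heads, against 6.82 and 7.84 CPM in the WT Heads, which fits the labels. Gpr161 was uneven in Fuz KO, with 25.4 CPM in Head library 1 and 24.3 CPM in Tail library 1, against 52.5 CPM in Head library 2 and 42.7 CPM in Tail library 2. In the Head of Gpr161 KO embryos Shh was at 109 and 149 CPM, against 27.1 and 31.5 CPM in the WT Heads. Head and Tail also kept to their labels: the 10 trunk genes fixed as a check summed to 7.32 to 14.9 CPM in the Heads and to 350 to 637 CPM in the Tails. Some libraries stood apart. The 16 hypoxia and glycolysis genes summed to 14000 CPM in Fuz KO Head library 1 and 10500 CPM in DKO Head library 1, against 3230 and 3300 CPM in the WT Heads, and the Tail libraries of the same numbers were high as well. By Xist and Y-linked counts all WT libraries were female, all Fuz KO and DKO libraries male, and Gpr161 KO was male in library 1 and female in library 2, so sex and genotype cannot be told apart for Fuz KO and DKO.

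Levels of different genes can be compared only per length, and in the WT Head the order per kilobase of exon was Dlx2, Dlx5, Dlx3, Dlx1, Dlx6 and Dlx4. Dlx2 averaged 9.04 ± 1.15 CPM per kilobase and Dlx5 7.06 ± 0.72 (SD, n = 2 each). Dlx3 averaged 4.98 ± 0.102 and Dlx1 4.46 ± 0.387 CPM per kilobase, and Dlx6 followed with 2.73 ± 0.395. Dlx4, at 0.214 ± 0.0279 CPM per kilobase, was far below the others. In the WT Tail the order was Dlx3, Dlx2, Dlx5, Dlx1, Dlx6 and Dlx4, between 2.25 ± 1.91 and 0.177 ± 0.102 CPM per kilobase. Dlx3 thus stood highest in the WT Tail, although its 2 Tail libraries were far apart.

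Dlx1 and Dlx2, the pair that acts earliest in the forebrain and along the whole arch, were Head genes in every genotype. In the Head, Dlx1 had 25.3 and 31.0 CPM in DKO, 14.1 and 13.4 CPM in Gpr161 KO, 14.9 and 36.0 CPM in Fuz KO, and 25.5 and 22.6 CPM in WT. In the Tail it had 2.47 and 2.74 CPM in DKO, 2.23 and 1.65 CPM in Gpr161 KO, 1.65 and 3.83 CPM in Fuz KO, and 2.80 and 1.58 CPM in WT. The lowest Head library of Dlx1 was above its highest Tail library. Dlx2 had 39.5 and 41.8 CPM in the DKO Heads, 26.5 and 20.0 CPM in the Gpr161 KO Heads, 45.0 and 27.3 CPM in the Fuz KO Heads, and 28.1 and 23.5 CPM in the WT Heads. Its Tail libraries held 8.41 and 5.38 CPM in DKO, 5.92 and 7.54 CPM in Gpr161 KO, 7.12 and 6.07 CPM in Fuz KO, and 6.63 and 4.67 CPM in WT. Dlx2 too had no overlap between Heads and Tails.

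Dlx5 and Dlx6, the lower arch pair that also marks the limb ridge and the otic and olfactory placodes, likewise had Heads above Tails within every genotype. For Dlx5 in Gpr161 KO this difference did not pass the test given below. Dlx5 had 13.9 and 16.4 CPM in the DKO Heads, 6.21 and 5.17 CPM in the Gpr161 KO Heads, 18.3 and 17.4 CPM in the Fuz KO Heads, and 14.8 and 17.1 CPM in the WT Heads. Its Tail libraries held 3.05 and 2.39 CPM in DKO, 3.18 and 2.66 CPM in Gpr161 KO, 5.93 and 3.11 CPM in Fuz KO, and 4.55 and 2.2 CPM in WT. Both Gpr161 KO Heads were below all 6 other Heads, and 1 of them was below the higher Fuz KO Tail. Dlx6 had 5.30 and 6.60 CPM in the DKO Heads, 4.04 and 2.35 CPM in the Gpr161 KO Heads, 5.74 and 8.87 CPM in the Fuz KO Heads, and 5.83 and 7.16 CPM in the WT Heads. In the Tails it held 0.577 and 0.411 CPM in DKO, 0.640 and 0.129 CPM in Gpr161 KO, 1.32 and 0.617 CPM in Fuz KO, and 0.886 and 0.755 CPM in WT. The Gpr161 KO Heads were again the lowest Heads, and every Head of Dlx6 was above every Tail. Dlx1, Dlx2 and Dlx6, 3 of the 6 members, were the ones with all 8 Heads above all 8 Tails, which held for 3.92% of all genes tested.

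Dlx3, known for its part in skin, hair and placenta, and Dlx4 of the same pair separated the regions less. Dlx3 had 20.3 and 13.1 CPM in the DKO Heads, 11.7 and 6.33 CPM in the Gpr161 KO Heads, 18.8 and 13.4 CPM in the Fuz KO Heads, and 13.2 and 12.8 CPM in the WT Heads. Its Tail libraries held 11.0 and 8.71 CPM in DKO, 9.55 and 9.58 CPM in Gpr161 KO, 16.5 and 5.95 CPM in Fuz KO, and 9.38 and 2.36 CPM in WT. Heads and Tails of Dlx3 overlapped in Gpr161 KO and Fuz KO and not in DKO and WT. Dlx4 was close to the bottom of the measured range, with 18 to 37 counts per Head library in DKO, Fuz KO and WT. It had 0.872 and 0.710 CPM in the DKO Heads, 0.246 and 0.209 CPM in the Gpr161 KO Heads, 0.467 and 0.761 CPM in the Fuz KO Heads, and 0.763 and 0.634 CPM in the WT Heads. The Gpr161 KO Heads, with 10 and 9 counts, were the lowest of all 16 libraries for Dlx4. In the Tail it had 0.947 and 1.02 CPM in DKO, 0.569 and 0.904 CPM in Gpr161 KO, 1.34 and 0.593 CPM in Fuz KO, and 0.814 and 0.343 CPM in WT. The DKO Tails were above the WT Tails, and the other Tail groups overlapped WT.

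**Figure D1:**
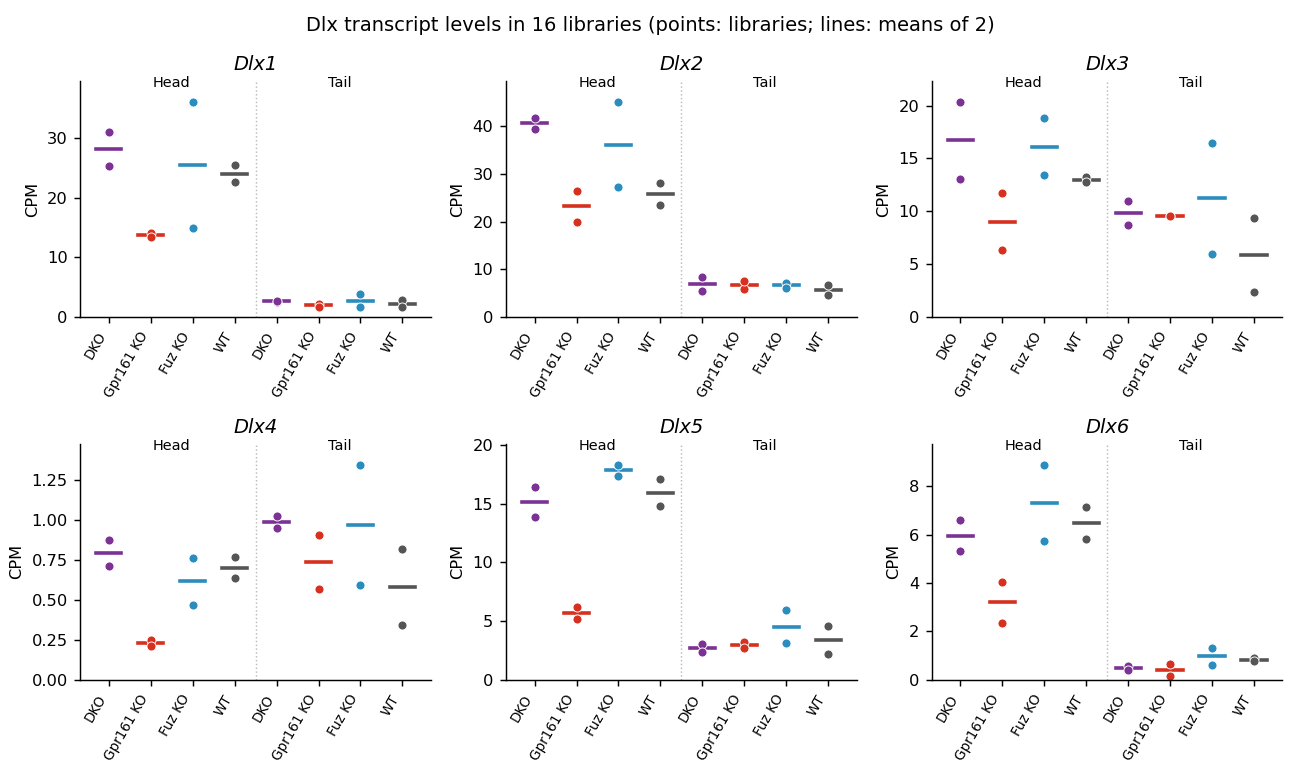
Levels of the 6 Dlx genes in CPM (vertical axis, from 0, scaled per gene) in the 8 groups of region and genotype. Points are libraries and lines are means of 2. Dlx1, Dlx2 and Dlx6 lie higher in every Head than in any Tail, Dlx3 and Dlx4 overlap between the regions, and Dlx5 in the Gpr161 KO Heads, at 6.21 and 5.17 CPM, lies near the Tails.

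When the 8 groups were put in order of their means, most neighbours in that order overlapped. For Dlx1 the groups parted between the WT and Gpr161 KO Heads and between the Gpr161 KO Heads and the Tails, and for Dlx2 only between the lowest Head group and the highest Tail group. For Dlx5 they parted between the Fuz KO and WT Heads and between the DKO and Gpr161 KO Heads. For Dlx6 they parted between the DKO and Gpr161 KO Heads, between the Gpr161 KO Heads and the Tails, and between the WT and DKO Tails. Dlx3 parted only between the Fuz KO and WT Heads, and Dlx4 only between the WT Tails and the Gpr161 KO Heads.

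Comparing Head with Tail within a genotype asks how far each member marks one end of the embryo. Dlx1, Dlx2, Dlx5 and Dlx6, 4 of the 6 members, were higher in Head than in Tail in DKO, in Fuz KO and in WT by edgeR's quasi-likelihood test with Benjamini-Hochberg adjustment, while Dlx1, Dlx2 and Dlx6, 3 of 6, passed in Gpr161 KO. Of all 21284 genes tested, 7.04% passed in either direction in DKO, 6.93% in Gpr161 KO, 6.3% in Fuz KO and 3.77% in WT, and those higher in Head made up 4.11% in DKO, 4.7% in Gpr161 KO, 3.66% in Fuz KO and 2.02% in WT. In bulk tissue, fewer cells that express a gene and less RNA of it per cell cannot be told apart. Dlx1 had the largest difference of the members in WT, 3.46 ± 0.46 on the log2 scale (SE, n = 2 per group, adjusted p = 0.000897), and it was 3.43 ± 0.46 in DKO, 2.82 ± 0.45 in Gpr161 KO and 3.21 ± 0.45 in Fuz KO. The Head over Tail difference of Dlx2 was 2.56 ± 0.29 in DKO, 1.79 ± 0.29 in Gpr161 KO, 2.46 ± 0.29 in Fuz KO and 2.19 ± 0.29 in WT.

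For the lower arch pair the WT values were 2.25 ± 0.35 for Dlx5 (adjusted p = 0.00251) and 2.98 ± 0.55 for Dlx6 (adjusted p = 0.00746), both by edgeR. The difference of Dlx6 was 3.59 ± 0.57 in DKO, 3.03 ± 0.58 in Gpr161 KO and 2.92 ± 0.55 in Fuz KO. Its call in WT was lost without WT Head library 2 (adjusted p = 0.0504) or without WT Tail library 1 (0.0739) or 2 (0.0641), and that in Gpr161 KO without Gpr161 KO Tail library 2 (0.0547). Dlx5 differed by 2.48 ± 0.36 in DKO and by 1.98 ± 0.35 in Fuz KO. In Gpr161 KO the Head over Tail difference of Dlx5 was 0.96 ± 0.35 with an adjusted p of 0.130 by edgeR. Dlx3 passed in no genotype, with differences of 0.76 ± 0.58 in DKO, -0.08 ± 0.58 in Gpr161 KO, 0.52 ± 0.58 in Fuz KO and 1.15 ± 0.59 in WT. Dlx4 did not pass either and had its lowest value in Gpr161 KO, -1.68 ± 0.57 (adjusted p = 0.109 by edgeR). With Head and Tail of the same genotype and number treated as a pair, the members called stayed the same in number, while the genes called over the whole table came to 3638 in DKO, 3761 in Gpr161 KO, 3094 in Fuz KO and 2007 in WT. Without the pairing they came to 1499 in DKO, 1475 in Gpr161 KO, 1341 in Fuz KO and 802 in WT.

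**Figure D2:**
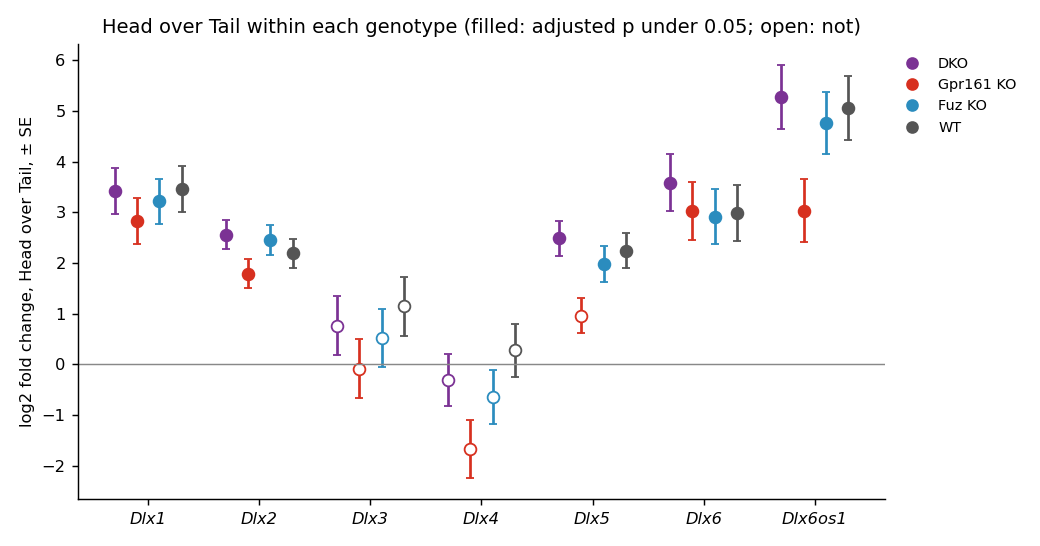
Log2 fold change of Head over Tail (vertical axis) for the 6 members and the non-coding RNA Dlx6os1 in each genotype, with bars of 1 SE from edgeR. Filled points have an adjusted p under 0.05. Dlx1, Dlx2 and Dlx6 are filled in every genotype, Dlx5 is open in Gpr161 KO alone, at 0.96, and Dlx3 and Dlx4 are open throughout.

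Dlx5 was lower in the Head of Gpr161 KO embryos than in that of WT embryos. Of the 6 members, Dlx5 fell in the Gpr161 KO Head relative to WT, by 1.49 ± 0.34 on the log2 scale (SE, n = 2 per group, adjusted p = 0.0419, edgeR's quasi-likelihood test), and the other 5 did not pass. Over all genes 2.02% passed in either direction, and 0.507% fell. All 6 members had negative log2 fold changes, with a median of -0.91 against 0.01 over all genes tested, and for 5 of the 6 both Gpr161 KO Heads were below both WT Heads, as for 25.1% of all genes. The exception was Dlx2, with overlapping libraries and a value of -0.15 ± 0.27.

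Among the other members that did not pass, Dlx4 stood at -1.60 ± 0.57 (adjusted p = 0.218 by edgeR), on few counts. Dlx6, which shares its locus with Dlx5, stood at -1.02 ± 0.50 (adjusted p = 0.424), and Dlx1 at -0.81 ± 0.41 (adjusted p = 0.452). Dlx3 stood at -0.52 ± 0.58. The call on Dlx5 rests on every library: leaving out any 1 of the 4 Heads gave an adjusted p of 0.181 to 0.305, with log2 fold changes of -1.65 to -1.39. With sex as a term the value was -1.63 and the adjusted p 0.0964. Only Gpr161 KO held both sexes, so in every comparison this term was estimated from its male library 1 against its female library 2. It cannot be told apart from other differences between those libraries.

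Markers of other tissue moved with this comparison. The 13 cardiomyocyte genes summed to 2480 and 521 CPM in the Gpr161 KO Heads, against 9.85 and 11.5 CPM in the WT Heads, where Nppa was at 0. The 8 cranial neural crest genes summed to 326 and 330 CPM in the Gpr161 KO Heads, against 401 and 379 CPM in the WT Heads, with none at 0. The 16 hypoxia and glycolysis genes summed to 7540 and 4900 CPM in the Gpr161 KO Heads, against 3300 and 3230 CPM in the WT Heads. The 9 erythroid genes summed to 7570 and 10400 CPM in the Gpr161 KO Heads, against 9240 and 7380 CPM in the WT Heads, and overlapped. The 8 forebrain and midbrain genes fixed as a check of the Head summed to 190 and 119 CPM in the Gpr161 KO Heads, against 249 and 233 CPM in the WT Heads, with none at 0. The part of the cardiomyocyte, crest, hypoxia and forebrain levels in the Dlx5 result was not tested.

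A non-coding RNA of the same locus moved with Dlx5. Dlx6os1, known as Evf2, is transcribed across the Dlx5 and Dlx6 interval on the strand opposite to Dlx6. It had 8.06 and 8.66 CPM in the DKO Heads, 2.41 and 1.26 CPM in the Gpr161 KO Heads, 6.13 and 13.9 CPM in the Fuz KO Heads, and 7.15 and 10.3 CPM in the WT Heads. Both Gpr161 KO Heads were below all other Heads. Relative to WT it fell by 2.25 ± 0.53 on the log2 scale in the Gpr161 KO Head (adjusted p = 0.0473 by edgeR), a call that was lost with any 1 of the 4 libraries left out (adjusted p of 0.134 to 0.355), with cardiomyocyte, haemoglobin and mitochondrial genes removed (0.0507), with sex as a term (0.095), with each region fitted alone (0.0576) and with a filter of 5 CPM (0.05 after rounding). The strand setting of the counting is not given in the sources used here, so reads of Dlx6 and Dlx6os1, of Dlx1 and Dlx1as, and of Dlx4 and Dlx4os cannot be told apart where they overlap. Dlx1as and Dlx4os did not pass in any of the 19 comparisons, and in the Gpr161 KO Head stood at -0.49 ± 0.57 and -1.27 ± 0.67. A second identifier named Dlx6os1 had no counts in any library.

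RefSeq's mouse table lists 2 starts of Dlx6os1, and the promoter of one is shown because the gene passed in the Gpr161 KO Head. The counts are per gene and do not tell from which start its transcripts came. The window runs from 250 bases before the start to 50 bases after it, on the minus strand, at chr6:6869484-6869783 of GRCm38.p6, and is given 5′ to 3′ with TAATTA, the core that homeodomain proteins bind, in capitals.
Dlx6os1: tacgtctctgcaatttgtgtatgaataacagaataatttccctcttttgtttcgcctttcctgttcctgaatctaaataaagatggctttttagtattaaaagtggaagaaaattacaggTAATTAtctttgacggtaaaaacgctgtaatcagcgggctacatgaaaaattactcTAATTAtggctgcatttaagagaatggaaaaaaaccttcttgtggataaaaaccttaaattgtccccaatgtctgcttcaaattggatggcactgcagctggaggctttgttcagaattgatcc
TAATTA, which reads the same on both strands, began at 130 and at 74 bases before the start, and 5.29% of the 32851 promoters of the table hold it. Another 3 motifs were searched on both strands and were not found in these letters. One was GACCACCCA, the binding core of GLI factors, which 0.253% of the promoters hold. The next was the TATA box, searched as TATAAA, which 13.6% of them hold. The last was the GC box, searched as GGGCGG, which 35.7% of them hold. The window was 35.7% G and C, against a median of 52.7% over all promoters. The windows of Dlx1 and Dlx2, 69.3% and 66.3% G and C, each held the GC box once and none of the other motifs. The window of the other Dlx6os1 start held TAATTA once and the TATA box 2 times. Promoters of Dlx3, Dlx4, Dlx5 and Dlx6 were not used here.

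Setting DKO against Gpr161 KO asks what the added loss of Fuz does where Gpr161 is missing. Dlx5 was higher in the DKO Head than in the Gpr161 KO Head by 1.42 ± 0.34 on the log2 scale (adjusted p = 0.0353 by edgeR), the 1 member of 6 that passed, where 4.16% of all genes passed in either direction and 1.03% rose. Dlx6os1 rose with it, by 2.19 ± 0.53 (adjusted p = 0.0353). All 6 members had positive values, with a median of 0.96 against 0.01 over all genes, and both DKO Heads above both Gpr161 KO Heads, as for 25.1% of all genes. Dlx4 stood at 1.78 ± 0.57, Dlx1 at 1.03 ± 0.41, Dlx6 at 0.90 ± 0.50, Dlx3 at 0.89 ± 0.58 and Dlx2 at 0.81 ± 0.28, none past the threshold. With the replicate number as a block the call count was 2, Dlx2 joining Dlx5. Leaving out any 1 of the 4 libraries brought the adjusted p of Dlx5 to between 0.114 and 0.252 and that of Dlx6os1 to between 0.0878 and 0.284, and with sex as a term it was 0.13 for Dlx5 and 0.142 for Dlx6os1. This comparison shares its Gpr161 KO Heads with the one against WT. Cardiomyocyte genes summed to 38.7 and 9.54 CPM in the DKO Heads, against 2480 and 521 CPM in the Gpr161 KO Heads. Cranial neural crest genes summed to 404 and 405 CPM in the DKO Heads, against 326 and 330 CPM in the Gpr161 KO Heads. Erythroid genes summed to 2670 and 6560 CPM in the DKO Heads, against 7570 and 10400 CPM in the Gpr161 KO Heads. These 3 lists did not overlap between the groups, and their part in the Dlx5 result was not tested.

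The Heads of DKO and Fuz KO lay near those of WT for most members. Both libraries were above both WT libraries for Dlx2 in DKO, as for 21.3% of all genes, and for Dlx3 and Dlx5 in Fuz KO, as for 18.6% of all genes. No member passed by edgeR or by DESeq2 in DKO against WT, where 0.0329% of genes passed by edgeR, or in Fuz KO against WT, where 0.047% did. The Fuz KO share turned on 1 library, with 10 genes called as reported and 2256 without Fuz KO Head library 2, none of them a member. At an unadjusted p under 0.05 there was 1 member in DKO, Dlx2 at 0.66 ± 0.27 (adjusted p = 0.957), where 4.33% of genes were, and none in Fuz KO, where 8.17% were. Dlx5 stood at -0.07 ± 0.33 in DKO and 0.16 ± 0.33 in Fuz KO, and Dlx6os1 at -0.06 ± 0.50 in DKO and 0.20 ± 0.49 in Fuz KO. A member that did not pass is not shown to be at its WT level. Against Fuz KO, too, no member passed in DKO by either tool, in the Head (0.0282% of genes called) or in the Tail (0.0329%). None had an unadjusted p under 0.05 there, as 2.89% of genes did in the Head and 3.69% in the Tail.

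Whether the DKO departs from the sum of the single mutants was tested as an interaction. No member passed in the Head, where 0.164% of genes did, by edgeR or by DESeq2, and 2 had an unadjusted p under 0.05, as did 8.02% of genes. These were Dlx5 at 1.26 ± 0.47 (adjusted p = 0.487) and Dlx4 at 1.96 ± 0.78 (adjusted p = 0.532). Dlx6os1 stood at 1.98 ± 0.71 (adjusted p = 0.454). In the Tail no member passed by either tool, where 0.0423% of genes did by edgeR, and none had an unadjusted p under 0.05, where 6.24% did.

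**Figure D3:**
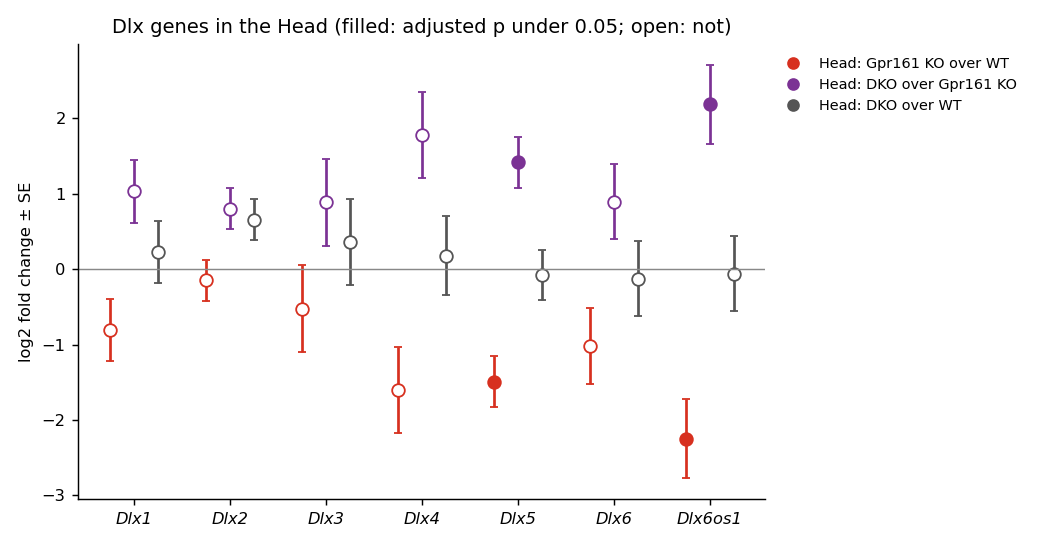
Log2 fold change in the Head (vertical axis) of Gpr161 KO over WT, DKO over Gpr161 KO and DKO over WT for the 6 members and Dlx6os1, with bars of 1 SE from edgeR. Filled points have an adjusted p under 0.05. Dlx5 and Dlx6os1 are the filled genes, at -1.49 and -2.25 in Gpr161 KO over WT and at 1.42 and 2.19 in DKO over Gpr161 KO, and the DKO over WT values lie between -0.13 and 0.66.

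In the Tail no member passed against WT in DKO, Gpr161 KO or Fuz KO, by edgeR or by DESeq2, and none had an unadjusted p under 0.05. Of all genes 0.0423% passed in DKO, 0.305% in Gpr161 KO and 0.0094% in Fuz KO, and an unadjusted p under 0.05 was found for 7.19% in DKO, 6.98% in Gpr161 KO and 5.21% in Fuz KO. Member values ran from -0.73 to 0.76 in DKO, from -1.07 to 0.71 in Gpr161 KO and from 0.22 to 0.93 in Fuz KO. Between DKO and Gpr161 KO Tails no member passed either, where 0.522% of genes did, and none had an unadjusted p under 0.05, where 12.2% did. The lowest value against WT was Dlx6 in Gpr161 KO, at -1.07 ± 0.58 on 27 and 5 counts, against 37 and 33 counts in WT. Dlx5 stood at -0.21 ± 0.35 in the Gpr161 KO Tail. The difference between its Gpr161 KO effect in Head and in Tail was -1.28 ± 0.48 with an adjusted p of 0.683 by edgeR, so a difference between the regions was not shown. For this difference 0 members passed by either tool and 2 had an unadjusted p under 0.05, Dlx5 and Dlx4 (-1.95 ± 0.78), where 0.094% of genes passed and 5.26% had an unadjusted p under 0.05. For the Fuz KO and DKO effects, Head less Tail, 0% of genes and no member passed. No member had an unadjusted p under 0.05 there, against 2.12% of genes for the Fuz KO effect and 3.25% for the DKO effect.

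Genes that work with Dlx factors were read from lists of known partners. Of all genes tested 1.51% rose and 0.507% fell in the Gpr161 KO Head relative to WT, the background for the counts of each list. Of 19 genes of the lower arch programme, 3 rose and 2 fell, with a median of 0.06. Msx1, a homeobox gene of arch and limb mesenchyme, averaged 40.2 ± 9.40 CPM in Gpr161 KO and 156 ± 1.1 CPM in WT (SD, n = 2 each) and fell by 1.96 ± 0.25 on the log2 scale (adjusted p = 0.0025 by edgeR). The genes of this list that rose belong to endothelin signalling upstream of Dlx5 and Dlx6, of which other listed genes did not pass. Those were Ednra at 0.61 ± 0.19 (adjusted p = 0.146 by edgeR), Plcb3 at 0.27 ± 0.17, Gnaq at 0.14 ± 0.098 and Gna11 at 0.001 ± 0.15. Ece1, which matures endothelin, rose by 1.02 ± 0.16 (adjusted p = 0.0061 by edgeR). The ligand gene Edn1 rose by 2.38 ± 0.52 (adjusted p = 0.0357 by edgeR) and the effector Mef2c by 1.08 ± 0.25 (adjusted p = 0.0439 by edgeR). Edn1 and Mef2c, named after their values were seen, are also expressed in heart and vessels, and the cardiomyocyte genes were high in these Heads as given above. The part of the cardiomyocyte levels in the rise of Edn1 and Mef2c was not tested.

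Of 17 genes of the upper arch and arch mesenchyme, 1 rose and 4 fell, with a median of -0.27. Tfap2b, a neural crest factor, averaged 20.2 ± 3.42 CPM in Gpr161 KO and 69.7 ± 6.55 CPM in WT and fell by 1.79 ± 0.24. Lhx8, a LIM homeobox gene of arch mesenchyme and of the ventral forebrain, fell by 3.00 ± 0.51, and Prrx1, a mesenchymal homeobox gene, by 1.62 ± 0.32. Lhx6, named after its values were seen, fell by 2.11 ± 0.48 (adjusted p = 0.0418 by edgeR).

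Of 17 genes of the ventral forebrain, where Dlx1 and Dlx2 act in making inhibitory neurons, none rose and 3 fell, with a median of -0.94. Sp8, a zinc finger factor of the forebrain and the limb ridge, averaged 3.52 ± 0.632 CPM in Gpr161 KO and 25.4 ± 3.57 CPM in WT and fell by 2.85 ± 0.24 (adjusted p = 0.000126 by edgeR). Its paralogue Sp9 fell by 1.72 ± 0.31. Gsx2, which acts above Dlx2 in the ventral forebrain, averaged 0.0479 ± 0.00192 CPM in Gpr161 KO and 1.30 ± 0.220 CPM in WT and fell by 4.68 ± 0.96. Of 20 genes of the surface ectoderm, limb ridge and placodes, none rose and 2 fell, with a median of 0.09. These were Wnt3, a limb ridge ligand, by 2.56 ± 0.33, and Oc90, an otic gene, by 5.32 ± 0.87.

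In this comparison Msx1, Tfap2b, Sp8 and Wnt3 passed with any 1 of the 4 libraries left out, while Ece1, Lhx8, Prrx1, Sp9, Gsx2 and Oc90 lost the call in at least 1 such fit, with adjusted p-values up to 0.246 (Prrx1). Such fits are not reported here for Edn1, Mef2c and Lhx6, whose calls lay close to the threshold. Across the same lists no gene passed against WT in the DKO or Fuz KO Head or the DKO or Fuz KO Tail.

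Between the DKO and Gpr161 KO Heads, a comparison that shares the Gpr161 KO libraries with the one above, 2 lower arch genes rose and 4 fell, 5 upper arch genes rose and 1 fell, 3 ventral forebrain genes rose and none fell, and 2 ectoderm, limb ridge and placode genes rose and 1 fell, where 1.03% of all genes rose and 3.13% fell. The medians were -0.17 for the lower arch, 0.34 for the upper arch, 0.64 for the ventral forebrain and 0.50 for the ectoderm list, against 0.01 over all genes. Lhx8 stood at 3.85 ± 0.52, Sp8 at 3.34 ± 0.24 and Wnt3 at 2.71 ± 0.33 on the log2 scale, and Ece1 at -1.19 ± 0.16.

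**Figure D4:**
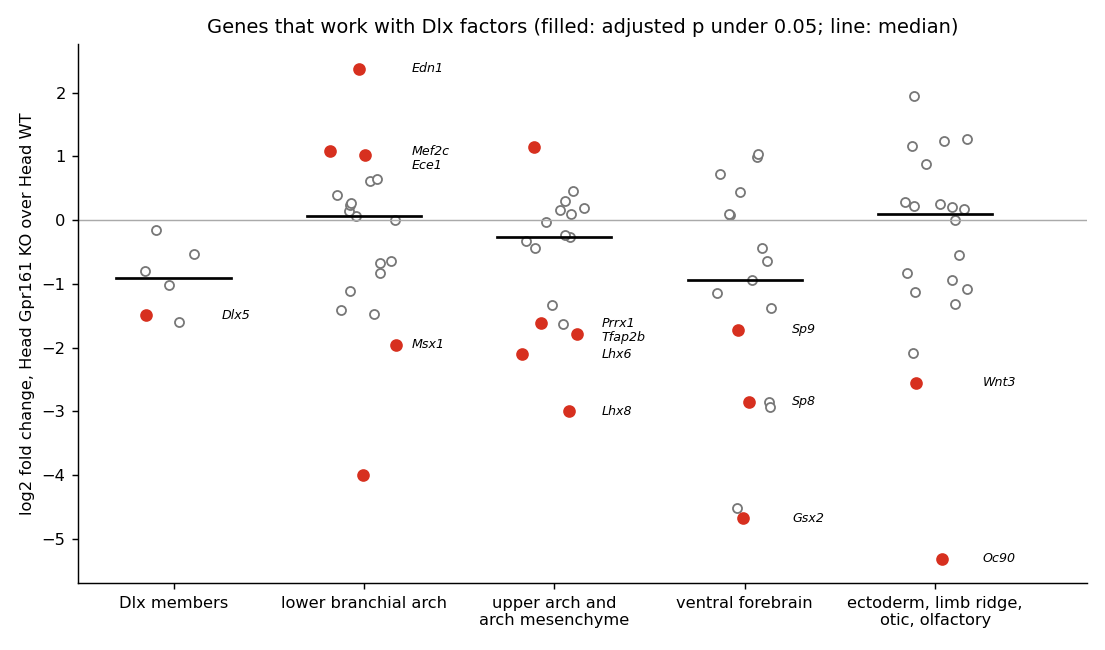
Log2 fold change of Gpr161 KO Head over WT Head (vertical axis) for the Dlx members and for the 4 lists of partner genes. Points are genes, filled where the adjusted p from edgeR is under 0.05, the genes described in the text are named, and lines are list medians. The member median is -0.91 with Dlx5 filled, the ventral forebrain median is -0.94, and the other lists have medians between -0.27 and 0.09.

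The genes that flank the pairs were read in the Gpr161 KO Head as well. By the order of genes in RefSeq's GRCm38 annotation these are Metap1d and Itga6 beside Dlx1 and Dlx2, Itga3 and Tac4 beside Dlx3 and Dlx4, and Sem1 and Sdhaf3 beside Dlx5 and Dlx6. Tac4 did not pass the filter on low counts. None of the other 5 passed in the Gpr161 KO Head against WT by edgeR. Sem1 stood at -0.34 ± 0.13, Sdhaf3 at -0.65 ± 0.21, Metap1d at -0.01 ± 0.14, Itga6 at 0.63 ± 0.15 (adjusted p = 0.0558) and Itga3 at 0.91 ± 0.22 (adjusted p = 0.0578). Itga3 thus stood further from 0 than Dlx1, Dlx2 and Dlx3, with the opposite sign.

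How the members vary together was described over the 16 libraries after the mean of each region was subtracted, a measure that carries genotype, sex and library quality at once. Dlx5 and Dlx6os1 had a Pearson correlation of 0.936 and Dlx5 and Dlx6 one of 0.697. Dlx3 and Dlx4 stood at 0.764, and the pair Dlx1 and Dlx2 at 0.159. Members of different pairs ran from 0.107 (Dlx2 and Dlx6) to 0.763 (Dlx4 and Dlx5), and Dlx4 and Dlx6os1 stood at 0.846. Neighbours were thus not set apart from the rest. Among 12874 protein-coding genes with a mean of at least 1 CPM, the most alike to Dlx5 were Ap4m1 (0.917), Pmaip1 (0.906) and Apcdd1 (0.903). Those of Dlx6 were Slc35f2 (0.860), Sgpp2 (0.838) and Slc44a5 (0.798). For Dlx1 they were Cop1 (0.897), Suv39h2 (0.892) and Krt14 (0.878), and for Dlx2 Uck2 (0.924), Spout1 (0.867) and Ntmt1 (0.835). For Dlx3 they were Mios (0.867), Pdgfa (0.851) and Sf3b1 (0.817), and for Dlx4 Alx1 (0.902), Lrrc40 (0.887) and Mtmr2 (0.883). Without subtraction of the region mean most of these were less alike, such as Pmaip1 at -0.251 with Dlx5 and Suv39h2 at -0.0304 with Dlx1. Apcdd1, at 0.918 with Dlx5, and Slc44a5, at 0.958 with Dlx6, were more alike. The best of 12874 values is high by the choice alone, and the 6 members named no gene in common.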

How the data were processed

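The authors deposited whole-number counts, 1 file for each library, that carry no normalization. The labels' protocols describe DNase-treated total RNA and poly-A selection. Tools named by the submitters' processing notes are STAR 2.7.1a and featureCounts 1.6.0 besides HTSeq, with the build GRCm39. Which tool counted, and on which strand, the sources used here do not say. The identifiers were named from GENCODE M21, in which 54723 of 54838 had a symbol, and lengths are those of its merged exons.

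The 16 libraries were fitted together as 8 groups in edgeR 4.0.16 (R 4.3.3) with TMM scaling, its group-wise filter on low counts, which left 21284 genes, and the robust quasi-likelihood test with 8 residual degrees of freedom. Each SE is the log2 fold change over the root of its F value. In each of 19 comparisons p-values were adjusted over all genes by Benjamini-Hochberg and called under 0.05, and DESeq2 1.42.0 was run beside it. The code was tested on simulated data. CPM use TMM-scaled library sizes.

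Within a genotype, number 1 minus number 2 correlated between Head and Tail at 0.133 (WT), 0.437 (Fuz KO), 0.196 (Gpr161 KO) and 0.282 (DKO) across genes. An alternative fit therefore took the numbers to pair Head and Tail, while the fit of 8 groups above used no pairing. Between genotypes of 1 region the correlations ran from -0.0787 to 0.302 and no pairing was assumed. Across both genotype and region they ran from -0.0518 to 0.268. Both ranges overlap the values within a genotype, so the correlations alone do not show the pairing. The genes named are the 6 members, the genes deleted and 3 Hedgehog genes, up to 3 called genes per list by adjusted p in each mutant against WT, the flanking genes, and the 3 genes most alike to each member. Some genes this rule names are not reported here. Members and lists were chosen with earlier results of these data known.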

Additional observations from a re-analysis of the deposited data

Results flagged for a closer look

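Sp8, of the ventral forebrain list, had a Gpr161 KO effect that differed between Head and Tail by a test of the difference itself. Sp8 had 3.97 and 3.07 CPM in the Gpr161 KO Heads, against 22.9 and 27.9 CPM in the WT Heads, and 20.4 and 21.5 CPM in the Gpr161 KO Tails, against 18.7 and 24.9 CPM in the WT Tails. The groups did not overlap in the Head and overlapped in the Tail. The log2 fold change over WT was -2.85 ± 0.24 in the Head and -0.06 ± 0.22 in the Tail, and their difference was -2.79 ± 0.32 (SE, adjusted p = 0.00792 by edgeR's quasi-likelihood test, 0.094% of genes called). Without WT Head library 2 the adjusted p of the difference was 0.0577. In the DKO Heads Sp8 had 42.2 and 29.0 CPM.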

How the results depend on the processing

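Depth and 2 libraries a group limit these results, and the Head counts of Dlx4 in Gpr161 KO were 9 and 10. The number of Dlx members called in the Gpr161 KO Head against WT, 1 as reported, was 0 with sex as a term, 2 (Dlx1 and Dlx5) without both Fuz KO 1 and both DKO 1 libraries, and 0 to 0 with 1 library left out. In the DKO Head against Gpr161 KO, 1 as reported, it was 4 with no filter on low counts (Dlx1, Dlx2, Dlx3 and Dlx5), 2 with the replicate block, 0 with sex as a term, 3 without both Fuz KO 1 libraries, 2 without both Fuz KO 1 and DKO 1 libraries, and 0 to 0 with 1 library left out. Head against Tail gave 2 to 3 members in Gpr161 KO and 3 to 4 in WT with 1 library left out, and with no filter Dlx5 passed in Gpr161 KO (adjusted p = 0.0393) and Dlx3 in WT (0.00165). The counts of the other 13 comparisons and of Head against Tail in DKO and Fuz KO did not move under any alternative. The cause of these moves was not tested.

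Genes called over the whole table in the Gpr161 KO Head against WT, 429 as reported, numbered 42 to 189 with 1 library left out, 196 with sex as a term, 258 with each region fitted alone, 659 with the replicate block, 968 by DESeq2, 1039 without both Fuz KO 1 libraries, 2211 without DKO 1 as well, and 1319 with no filter; in the DKO Head against Gpr161 KO, 886 as reported, they numbered 211 to 2406. In the Fuz KO Head against WT, 10 as reported, they numbered 2256 without Fuz KO Head library 2, 3 to 5 with 1 of the other 3 libraries left out, 51 by DESeq2 and 780 with no filter. Without Fuz KO Head library 2 they also numbered 545 for the departure from the sum of the single mutants (35 as reported) and 421 in the DKO Head against Fuz KO (6 as reported). The replicate block between genotypes shares only a number; it moved no other member count. The pairing of Head and Tail was added after seeing the data and changed no member call.

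Signs turned with 1 library left out in the ranges -0.384 to 0.0139 (Dlx2, Gpr161 KO Head against WT), -0.0476 to 1.43 (Dlx3, Fuz KO Head against Tail), -0.596 to 0.285 (Dlx3, Gpr161 KO Head against Tail), -0.205 to 1.04 (Dlx4, WT Head against Tail), -1.13 to 0.048 (Dlx4, Fuz KO Head against Tail), -0.242 to 0.161 (Sp8, Gpr161 KO Tail against WT) and -0.0826 to 0.0123 (Metap1d, Gpr161 KO Head against WT), none of them called. Dlx4 in Fuz KO Head against Tail also stood at 0.357 without both Fuz KO 1 libraries and 0.348 without DKO 1 as well. Itga6 and Itga3 passed in the Gpr161 KO Head with the replicate block (adjusted p = 0.00567 and 0.0122) and by DESeq2 (0.0177 and 0.0104). Apart from fits with 1 library left out, adjusted p-values by edgeR ran from 0.0045 to 0.234 for Itga6. For Itga3 they ran from 6.36e-06 to 0.187. Of the genes beside Dlx5 and Dlx6, Sdhaf3 passed by DESeq2 (-0.678, adjusted p = 0.0299), and without both Fuz KO 1 and both DKO 1 libraries Sdhaf3 (-0.673, adjusted p = 0.032) and Sem1 (-0.366, adjusted p = 0.0103) passed. Dlx4 has no value under the filter of 5 CPM.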

Other observations

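Dlx1 and Dlx2, although neighbours, went opposite ways between the 2 Fuz KO Heads: library 1 had 14.9 CPM of Dlx1 and 45.0 CPM of Dlx2, and library 2 had 36.0 and 27.3 CPM. Library 1 is the one whose hypoxia and glycolysis genes summed to 14000 CPM, against 3810 CPM in library 2. Dlx1as, on the strand opposite to Dlx1, had 0.649 CPM in library 1 and 2.21 CPM in library 2. The Fuz KO Tails had 1.65 and 3.83 CPM of Dlx1 and 7.12 and 6.07 CPM of Dlx2 in libraries 1 and 2. In the DKO Heads the hypoxia and glycolysis genes summed to 10500 and 5090 CPM. Dlx1 had 25.3 and 31.0 CPM there, and Dlx2 39.5 and 41.8 CPM. In the Gpr161 KO Heads they summed to 7540 and 4900 CPM, with 14.1 and 13.4 CPM of Dlx1 and 26.5 and 20.0 CPM of Dlx2. Dlx1 and Dlx2 did not go opposite ways in either group. With 2 libraries a group this is a description, and the part of hypoxia in the Fuz KO values was not tested.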
